A study of Mus musculus with 12 samples.

Results

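The 30 genes described here are direct or long-recognised transcriptional targets of the tumour suppressor p53, measured in mouse embryonic fibroblasts that had been immortalised by the large T antigen of SV40. They were taken by gene symbol from a list, and the list and the roles were chosen with earlier results of these data known. All 30 were found among the 47517 rows of the count table, and all 30 were among the 17609 genes with enough counts to be tested. By role, 5 are known for cell cycle arrest and growth control (Cdkn1a, Btg2, Gadd45a, Plk2, Plk3) and 13 for cell death (Bax, Bbc3, Pmaip1, Fas, Perp, Eda2r, Ei24, Aen, Tnfrsf10b, Apaf1, Bid, Trp53inp1, Phlda3). A further 4 act in DNA repair or nucleotide supply (Polk, Xpc, Ddb2, Rrm2b), 4 in stress and metabolism (Sesn1, Sesn2, Ddit4, Dcxr), and 4 in feedback on p53 or in other roles (Mdm2, Ccng1, Zmat3, Ckap2).

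RNA came from 12 libraries in 6 groups of 2. All cells were C57BL/6 fibroblasts from E13.5 embryos with floxed Ssb1 (gene symbol Nabp2) and floxed Ssb2 (Nabp1), genes of proteins that bind single-stranded DNA. The Cre-negative (Cre -ve) genotype is given as Fl/Fl for Ssb1 and Fl/Fl for Ssb2, and the Cre-positive (Cre +ve) genotype as Fl/F for Ssb1 and Fl/Fl for Ssb2. The Cre is Rosa-CreERT2, a recombinase expressed from the Rosa locus and switched on by 4-hydroxytamoxifen (4-OHT). Cells of each genotype were untreated, or were given ethanol (the vehicle) or 4-OHT for 5 days. Controls and knockouts alike carried large T antigen, delivered by a pMSCV retrovirus with a puromycin or blasticidin marker, and the labels do not say which marker each culture had. They also do not say how many lines or embryos stand behind a genotype, or whether the paired libraries of a group are separate cultures. The p-values are therefore based on a spread between libraries that may be technical only, and a difference between genotypes cannot be told apart from a difference between lines.

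p53 is a transcription factor that is kept low by the ubiquitin ligase Mdm2, itself a p53 target, and that is stabilised after DNA damage and other stresses. It then raises genes that halt the cell cycle, led by the cyclin-dependent kinase inhibitor p21 (Cdkn1a), genes that lower the threshold for apoptosis, and genes that repair DNA or limit growth. SV40 large T antigen binds and inactivates p53 and the retinoblastoma proteins, and many of the target genes are also driven by other factors, such as ATF4 in the integrated stress response.

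p53 binds pairs of a 10-base element, purines at each 5′ end, then CWWG (W is A or T), then pyrimidines. The sequences below are those of the members with the smallest p for 4-OHT against ethanol in Cre-positive cells whose promoter holds the element, with 10 bases of flank where the window allowed. The Cdkn1a sequence was added after its values were seen, because it was the only member promoter with a pair of elements. Capitals mark the elements. The sequences are from RefSeq (GRCm38.p6), read 5′ to 3′ on the gene's strand.
Sesn1: cttggccttcAAGCTTGTTTttgctggcct
Ckap2: ctgtgtctgaAGACATGTCCtgacttgtca
Ei24: cgtgcggcccGGGCATGCCC
Aen: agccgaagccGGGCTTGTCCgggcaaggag
Cdkn1a: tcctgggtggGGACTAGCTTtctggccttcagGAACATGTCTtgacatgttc
They lie at chr10:41887256-41887285 (plus strand, Sesn1), chr8:22186003-22186032 (minus, Ckap2), chr9:36797335-36797354 (minus, Ei24), chr7:78895927-78895956 (plus, Aen) and chr17:29090896-29090947 (plus, Cdkn1a). The elements begin 173 bases before an annotated start in Sesn1, 203 in Ckap2, 10 in Ei24, 121 in Aen and 73 in Cdkn1a. The elements of the Cdkn1a pair are 12 bases apart. Sesn1, Cdkn1a and Aen each had another annotated start. There the Sesn1 and Cdkn1a promoters held no element, and the Aen promoter held none wholly before the start. The search allowed no mismatch. In Cdkn1a the 10 bases after the pair, in lower case, break the pattern only at the base next to it. Which stretch p53 binds there was not tested. Sesn1 and Ei24 are among the genes that rose with 4-OHT below, Ckap2 and Aen among those that fell, and Cdkn1a did not pass that test, so a match went with no single direction.

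Of the 30 members, 22 were in the promoter table, which spans 250 bases before to 50 after each start. Of these, 10 genes (45.5%) held at least 1 element, against 9.55% of the 27025 genes in the table. Counted by promoter, it was 11 of 28 against 8.36% of 32851. A pair with at most 13 bases between its elements was found in 1 member, Cdkn1a, and in 24 promoters (0.0731%) in all. The element reads the same on both strands, so 1 search covers both. These matches are descriptions of letters in the window, and known p53 sites outside it, such as those in the Mdm2 gene, were not searched.

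Totals ran from 20201855 to 36367012 counts per library. Both targeted genes were low after 4-OHT in the Cre-positive genotype. Nabp1 was at 3.40 and 3.96 CPM (counts scaled to a common library total) with 4-OHT against 14.5 and 15.9 with ethanol, and Nabp2 at 4.84 and 5.09 against 19.8 and 22.6. Nabp1 fell by 2.05 on the log2 scale (SE 0.104, adjusted p = 7.51e-12) and Nabp2 fell by 2.10 (SE 0.0942, adjusted p = 1.31e-12). In Cre-negative cells neither passed (0.03 and 0.17), by edgeR's quasi-likelihood test with Benjamini-Hochberg adjustment, which gives every adjusted p below. The 10 fibroblast markers summed to 6437 to 8520 CPM, and markers of other cell types were low, except the neural list (63.5 to 94.5 CPM) and the adipocyte list in Cre-negative cells (31.8 to 48.7 CPM).

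With 4-OHT in Cre-positive cells, compared with ethanol, the p53 targets did not move as a block: 12 of 30 rose, where 21.1% of all tested genes rose, and 7 fell, where 17.2% of all genes fell. Their median change was 0.12 on the log2 scale, against 0.03 for all tested genes. Of the 13 death genes 7 rose and 3 fell (median 0.20). Of the arrest genes 2 rose and 1 fell (median 0.26), and of the 4 repair genes none rose and 1 fell (median -0.02). In stress and metabolism 2 of 4 rose and none fell (0.18), and in the last group 1 rose and 2 fell (-0.15).

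**Figure D1:**
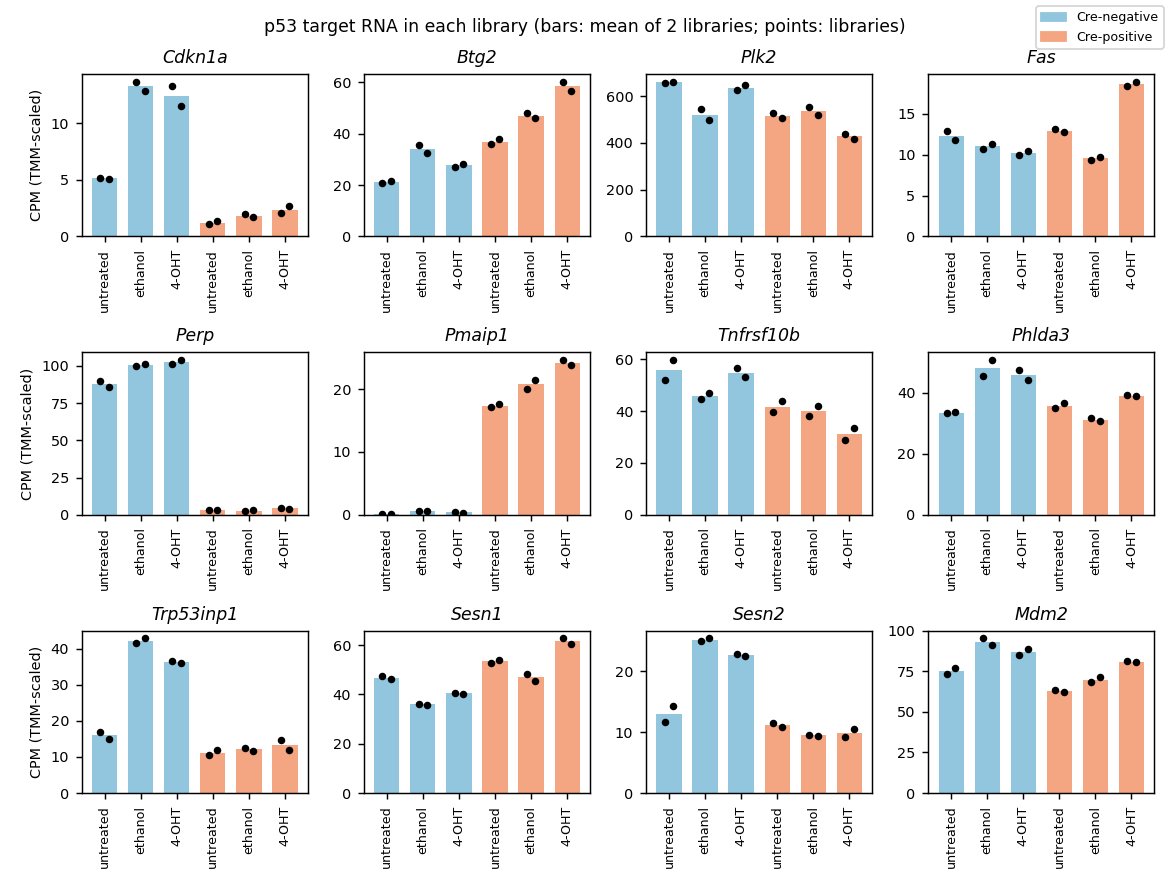
Level of selected p53 target genes in each of the 12 libraries, in CPM, by genotype and treatment; each point is 1 library and each bar the mean of 2. Fas in Cre-positive cells is at 18.3 and 18.9 CPM with 4-OHT and at 9.39 and 9.69 with ethanol, while Perp and Pmaip1 separate the genotypes in opposite directions.

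Fas, the cell-surface death receptor, had the smallest p of the members (chromosome 19, 34290666 to 34327772). It was at 18.3 and 18.9 CPM with 4-OHT, 9.39 and 9.69 with ethanol and 13.1 and 12.7 without either. Fas thus rose 1.95-fold over ethanol (log2 0.96, SE 0.0811, adjusted p = 1.17e-08), and the ethanol libraries were the lowest of the 3 groups. The other death receptor genes did not follow it together. Tnfrsf10b, the mouse receptor for TRAIL (chromosome 14, 69767472 to 69784411), was at 28.8 and 33.5 CPM with 4-OHT, 38.3 and 41.8 with ethanol and 39.5 and 43.8 without either, and fell (log2 -0.37, SE 0.0768, adjusted p = 0.000677). Eda2r, a receptor of the same superfamily (chromosome X, 97333840 to 97377216), was barely expressed, with 8 and 7 counts in the 4-OHT libraries and 1 count in each ethanol library. Its summed, depth-corrected ratio was 6.54, with a 95% counting interval of 1.52 to 58.9 (counting error only), and its adjusted p was 0.0121.

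Among the death genes that act inside the cell or at its membrane, the rises were smaller than that of Fas. Perp, a membrane protein of p53-dependent apoptosis and of desmosomes (chromosome 10, 18845020 to 18857073), was at 4.64 and 4.03 CPM with 4-OHT, 2.47 and 3.22 with ethanol and 3.15 and 3.15 without either (log2 0.61, SE 0.132, adjusted p = 0.000997). Bax, the pore-forming killer of the BCL-2 family (chromosome 7, 45461697 to 45466898), was at 52.2 and 53.3 CPM against 48.1 and 44.01 with ethanol, and both 4-OHT values were just under the untreated 54.2 and 53.5 (log2 0.20, SE 0.0532, adjusted p = 0.00610). Pmaip1 (Noxa), a BH3-only protein that blocks the prosurvival protein Mcl-1, was at 24.6 and 23.8 CPM against 20.004 and 21.5 with ethanol and 17.2 and 17.6 without either (log2 0.22, SE 0.0758, adjusted p = 0.0252). Bbc3 (Puma), a BH3-only protein known for p53-driven death, overlapped between the groups, with 8.35 and 6.53 CPM against 7.29 and 6.64 with ethanol (0.11, adjusted p = 0.513), and Bid, which links death receptors to mitochondria, likewise did not pass (-0.02, adjusted p = 0.792). Apaf1, the scaffold of the apoptosome (chromosome 10, 90989311 to 91082770), was at 45.9 and 43.8 CPM against 51.4 and 54.3, and fell (log2 -0.24, SE 0.0501, adjusted p = 0.000741).

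Of the remaining death genes, Ei24, an endoplasmic reticulum protein with a part in autophagy (chromosome 9, 36779159 to 36797393), was at 80.3 and 77.2 CPM with 4-OHT, 66.1 and 66.5 with ethanol and 61.1 and 63.9 without either (log2 0.25, SE 0.0473, adjusted p = 0.000270). Phlda3, which competes with Akt for membrane lipids (chromosome 1, 135766119 to 135769136), was at 39.3 and 38.9 CPM against 31.7 and 30.6 with ethanol and 34.9 and 36.6 without either (log2 0.33, SE 0.0608, adjusted p = 0.000209). Aen, an apoptosis-enhancing nuclease (chromosome 7, 78895854 to 78911209), went the other way, at 38.1 and 38.6 CPM against 44.8 and 46.6 (log2 -0.25, SE 0.0529, adjusted p = 0.000644). Its 4-OHT values lay beside the untreated 39.1 and 37.01, so the ethanol libraries were the ones that stood apart. Trp53inp1, a stress-induced p53 cofactor, overlapped between the groups (0.14, adjusted p = 0.249).

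Cdkn1a, the best known p53 target and the inhibitor of cyclin-dependent kinases (chromosome 17, 29090976 to 29100727), did not pass against ethanol. Its values were 2.07 and 2.66 CPM with 4-OHT, 1.99 and 1.71 with ethanol and 1.06 and 1.33 without either (log2 0.35, SE 0.185, adjusted p = 0.150). Btg2, an antiproliferative protein that promotes mRNA deadenylation (chromosome 1, 134075170 to 134079120), was at 60.2 and 56.7 CPM against 47.9 and 45.9 with ethanol and 35.9 and 38.04 without either, and rose (log2 0.32, SE 0.0559, adjusted p = 0.000119). Gadd45a, a stress sensor that can block Cdk1 (chromosome 6, 67035096 to 67037457), was at 11.1 and 11.1 CPM against 8.77 and 9.72 (log2 0.26, SE 0.103, adjusted p = 0.0488). Plk2, a polo-like kinase of centriole duplication (chromosome 13, 110395046 to 110400844), was at 439 and 416 CPM against 552 and 519.8 with ethanol and 527 and 507 without either, below both controls (log2 -0.33, SE 0.0446, adjusted p = 6.78e-06). Plk3, its stress-responsive relative, did not pass (-0.05, adjusted p = 0.650).

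No repair gene rose. Xpc, which recognises bulky DNA lesions in nucleotide excision repair (chromosome 6, 91489305 to 91515888), was at 14.4 and 14.1 CPM against 17.5 and 15.4 with ethanol and was the repair gene that fell (log2 -0.20, SE 0.0788, adjusted p = 0.0481). Ddb2, the damage sensor that hands lesions to Xpc (0.26, adjusted p = 0.224), the translesion polymerase Polk (-0.10, adjusted p = 0.316) and Rrm2b, the p53-induced subunit of ribonucleotide reductase (0.06, adjusted p = 0.596), did not pass.

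Sesn1, a sestrin that restrains mTORC1 (chromosome 10, 41809935 to 41908424), was at 62.8 and 60.4 CPM with 4-OHT, 48.1 and 45.6 with ethanol and 52.6 and 54.1 without either (log2 0.39, SE 0.0486, adjusted p = 1.9e-06). The 4-OHT values were above both controls. Dcxr, a carbonyl and xylulose reductase (chromosome 11, 120725399 to 120727281), was at 7.47 and 6.73 CPM against 5.93 and 5.53 with ethanol (log2 0.31, SE 0.111, adjusted p = 0.0299). Its untreated values of 6.77 and 5.65 CPM overlapped those with 4-OHT, and it was not called against untreated cells. Sesn2 (0.05, adjusted p = 0.722) and Ddit4, another mTORC1 inhibitor (0.02, adjusted p = 0.825), which are also targets of ATF4, did not pass.

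Mdm2, the ubiquitin ligase of p53 (chromosome 10, 117688875 to 117710758), was at 81.1 and 80.7 CPM with 4-OHT, 68.4 and 71.4 with ethanol and 63.4 and 62.1 without either, in that order and without overlap (log2 0.21, SE 0.0443, adjusted p = 0.000748). Zmat3, an RNA-binding zinc finger protein (chromosome 3, 32334792 to 32366014), fell, at 20.01 and 20.04 CPM against 24.4 and 28.2 (log2 -0.39, SE 0.102, adjusted p = 0.00424). Ckap2, a spindle-associated protein that is abundant in dividing cells (chromosome 8, 22168160 to 22185819), fell too, at 134 and 136 CPM against 169 and 158 (log2 -0.28, SE 0.0389, adjusted p = 9.76e-06). Ccng1, cyclin G1, an early identified p53 target, did not pass (-0.02, adjusted p = 0.757).

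**Figure D2:**
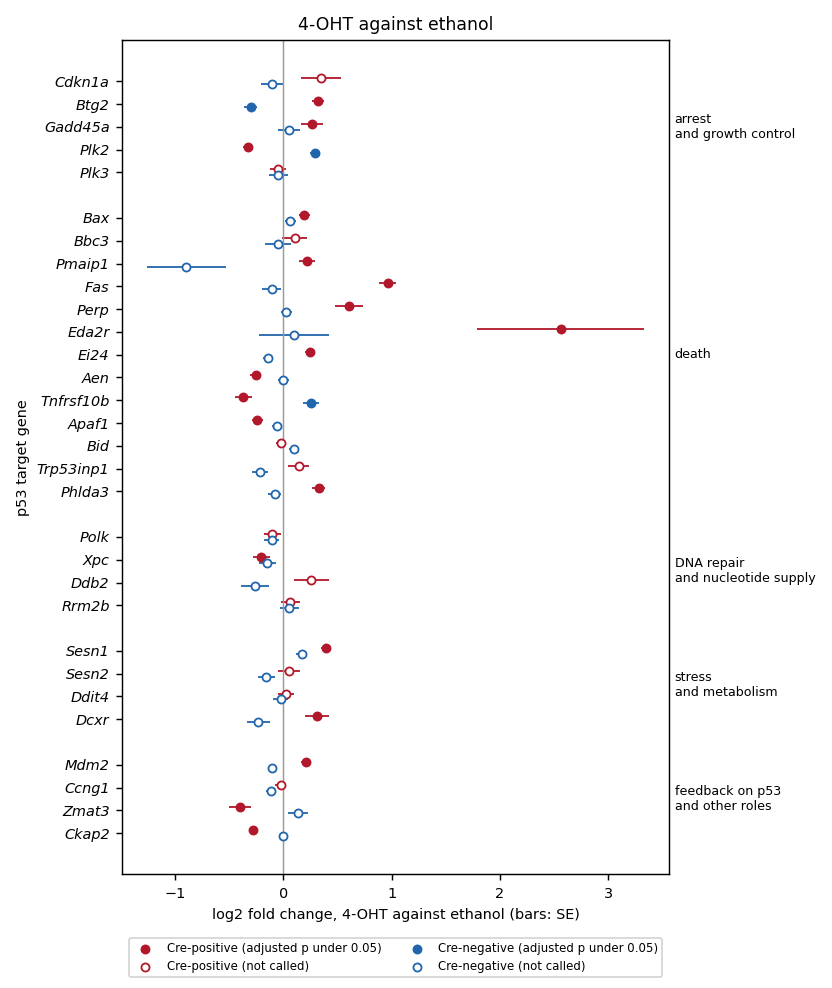
Change of each p53 target gene with 4-OHT against ethanol, as log2 fold change with its standard error, for each genotype, ordered by role (filled points passed at an adjusted p under 0.05). In Cre-positive cells 12 genes rose and 7 fell, and in Cre-negative cells 2 rose and 1 fell.

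Of these calls, 7 of the 12 rises (Btg2, Fas, Perp, Ei24, Phlda3, Sesn1, Mdm2) and 5 of the 7 falls (Plk2, Aen, Tnfrsf10b, Apaf1, Ckap2) held in every alternative analysis that was run. These alternatives did not include untreated cells as the only control. In that separate comparison, given below, Phlda3 and Aen were not called. With 1 library left out, calls were lost without library 3 for Gadd45a (0.17), Pmaip1 (0.15), Eda2r (adjusted p = 0.0602), Xpc (-0.13) and Dcxr (0.34), without library 4 for Gadd45a (0.34), Bax (0.13), Eda2r (adjusted p = 0.0844), Dcxr (0.26) and Zmat3 (-0.29), without library 11 for Gadd45a (0.26), Pmaip1 (0.19), Xpc (-0.22) and Dcxr (0.23), and without library 12 for Gadd45a (0.26), Pmaip1 (0.25) and Xpc (-0.19) (log2 values). Some marker sums were higher in the same contrast. Endothelial markers summed to 1.44 to 1.53 CPM with 4-OHT and 0.570 to 0.626 with ethanol. Skeletal muscle markers summed to 8.52 to 8.55 against 6.19 to 6.57, and adipocyte markers to 8.86 to 9.56 against 5.60 to 5.93. Few of these markers had enough counts to be tested: 2 endothelial, 1 skeletal muscle and 1 adipocyte gene. Neural sums were lower, at 74.6 to 77.0 against 77.3 to 78.1. Fibroblast sums were lower too, at 7496 to 7585 against 7692 to 8520, while epithelial and haematopoietic sums overlapped. The mitochondrial share of counts was 1.83% and 1.92% against 1.49% and 1.74%. In bulk RNA, a change in the number of cells of a type and a change in RNA per cell cannot be told apart. The part of these values in the results was not tested.

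In Cre-negative cells, 4-OHT moved few of the targets: 2 of 30 rose (3.33% of all genes rose) and 1 fell (2.65% of all genes fell). The median change of the members was -0.05, against 0.002 for all tested genes. Plk2 rose, from 544 and 496 CPM with ethanol to 626 and 645 with 4-OHT (log2 0.29, SE 0.0445, adjusted p = 0.000400), as did Tnfrsf10b, from 44.8 and 47.02 to 56.6 and 53.1 CPM (log2 0.25, SE 0.0733, adjusted p = 0.0428). Btg2 fell, from 35.7 and 32.6 to 27.1 and 28.2 CPM (log2 -0.30, SE 0.0640, adjusted p = 0.00652). All 3 moved against their direction in Cre-positive cells. The call was lost without library 5 for Btg2 (-0.29) and Tnfrsf10b (0.20), without library 6 for Tnfrsf10b (0.29), without library 9 for Btg2 (-0.25) and Tnfrsf10b (0.21), and without library 10 for Tnfrsf10b (0.28), so that 1 member rose in each fit without a library and none fell without library 5 or 9.

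The difference of the 4-OHT effects, Cre-positive minus Cre-negative, was above 0 for 11 members (14.5% of all genes) and below 0 for 5 (13.8% of all genes), with a median of 0.18 against 0.02 for all tested genes. By role, 7 of 13 death genes were above and 2 below, 1 of 5 arrest genes was above and 1 below, no repair gene passed in either direction, 2 of 4 stress genes were above, and in the last group 1 was above and 2 below. Fas had a difference of 1.07 (SE 0.121, adjusted p = 1.69e-06), with Cre-negative values of 9.93 and 10.5 CPM with 4-OHT and 10.7 and 11.3 with ethanol. For Btg2 it was 0.62 (SE 0.0850, adjusted p = 1.58e-05). For Ei24, at 70.3 and 66.9 CPM with 4-OHT and 74.2 and 76.9 with ethanol in Cre-negative cells, it was 0.39 (SE 0.0676, adjusted p = 0.000189). These 3 passed above 0 in every alternative.

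Below 0, Plk2 had a difference of -0.62 (adjusted p = 4.47e-07), and Tnfrsf10b also -0.62 (adjusted p = 0.000162). Zmat3, at 40.5 and 44.8 CPM with 4-OHT and 40.1 and 37.6 with ethanol in Cre-negative cells, had -0.53 (adjusted p = 0.00592). Ckap2, which overlapped between the Cre-negative groups (160.5 and 163 CPM with 4-OHT, 161 and 162 with ethanol), had -0.27 (adjusted p = 0.000778). These 4 passed in every alternative, and the fifth, Aen, at 57.5 and 62.02 CPM with 4-OHT and 59.1 and 60.4 with ethanol in Cre-negative cells, had -0.26 (adjusted p = 0.0113).

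The other 8 members above 0 each lost the pass above 0 in at least 1 alternative. Mdm2 had a difference of 0.31, adjusted p = 0.000815, with 85.2 and 88.6 CPM with 4-OHT and 95.3 and 91.1 with ethanol in Cre-negative cells. Phlda3 had 0.41, adjusted p = 0.00107, with 47.5 and 44.2 CPM against 45.6 and 50.8 there. Sesn1 had 0.22, adjusted p = 0.0238, with 40.8 and 40.1 CPM against 36.1 and 35.7. All 3 rose in Cre-positive cells and did not pass in Cre-negative cells. Perp, at 101 and 104 CPM with 4-OHT and 99.99 and 101 with ethanol in Cre-negative cells, had 0.58, adjusted p = 0.00394. Dcxr had 0.55, adjusted p = 0.0110, with 7.51 and 7.36 CPM against 8.57 and 8.86 in those cells. Trp53inp1, which passed in neither genotype alone, had 0.36, adjusted p = 0.0298: it was at 36.6 and 36.2 CPM with 4-OHT and 41.6 and 42.9 with ethanol in Cre-negative cells. Pmaip1 (1.115, adjusted p = 0.0280) rested on Cre-negative levels of 0.486 and 0.231 CPM with 4-OHT and 0.659 and 0.615 with ethanol. Eda2r passed as well (adjusted p = 0.0346), with 21 counts in each Cre-negative 4-OHT library and 19 and 22 with ethanol, a ratio of 1.07 (95% counting interval 0.676 to 1.68).

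The count changed with the control. With the untreated libraries in place of the ethanol libraries, 4 members were above 0 (Btg2 0.28, Fas 0.79, Ei24 0.23, Sesn1 0.42), where 12% of all genes were, and 12 below, where 11.7% of all genes were. Besides Trp53inp1 and Phlda3, those below were Sesn2 (-0.98), Zmat3 (-0.63), Ckap2 (-0.60), Ddit4 (-0.56), Ccng1 (-0.51), Tnfrsf10b (-0.38), Xpc (-0.34), Apaf1 (-0.26), Aen (-0.23) and Plk2 (-0.22). Xpc is a repair gene, so a repair gene passed with this control. Trp53inp1 (-0.92), Phlda3 (-0.32) and Pmaip1 (-0.44) changed sign, the first and second of them with a pass below 0. DESeq2's Wald test with the ethanol controls gave 6 above 0 (8.54% of all genes) and 5 below (9.98% of all genes). With 1 library left out, calls were lost without library 3 for Perp (0.39) and Eda2r (adjusted p = 0.103), without library 4 for Eda2r (adjusted p = 0.141), Trp53inp1 (0.31) and Sesn1 (0.19), without library 5 for Trp53inp1 (0.35) and Sesn1 (0.23), without library 6 for Pmaip1 (0.60), Eda2r (adjusted p = 0.0853), Aen (-0.21), Trp53inp1 (0.34) and Sesn1 (0.20), without library 9 for Pmaip1 (1.06), Eda2r (adjusted p = 0.0613), Trp53inp1 (0.37) and Sesn1 (0.21), without library 10 for Pmaip1 (1.15), Eda2r (adjusted p = 0.0724), Trp53inp1 (0.32) and Sesn1 (0.22), without library 11 for Perp (0.47), Eda2r (adjusted p = 0.0871), Trp53inp1 (0.19), Sesn1 (0.20) and Dcxr (0.46), and without library 12 for Eda2r (adjusted p = 0.0776). The number above 0 was then 7 without library 6, 9 or 10 and 6 without library 11.

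Against untreated cells, 4-OHT in Cre-positive cells gave 12 members that rose (21% of all genes rose) and 8 that fell (18.2% of all genes fell), with a median of 0.07 against 0.01. Of the 5 arrest genes 4 rose and 1 fell (median 0.59). Cdkn1a rose 1.98-fold (log2 0.99, SE 0.218, adjusted p = 0.00101), Btg2 rose by 0.67, Gadd45a by 0.59 and Plk3 by 0.28 on the log2 scale, and Plk2 fell (-0.27). Of the death genes 6 rose: Fas (0.52), Pmaip1 (0.48), Perp (0.47), Ei24 (0.34), Trp53inp1 (0.26) and Eda2r (adjusted p = 0.0267, ratio of counts 5.25, interval 1.22 to 47.3), while Tnfrsf10b (-0.42) and Apaf1 (-0.26) fell.

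The repair genes again gave 1 fall, Xpc (-0.22), and no rise. Sesn1 rose (0.21) and Ddit4 fell (-0.59), and in the last group Mdm2 rose (0.37) while Ccng1 (-0.20), Zmat3 (-0.34) and Ckap2 (-0.21) fell. This comparison shares its 4-OHT libraries with that against ethanol: 9 members rose in both, 6 fell in both and none was called in opposite directions. Bax, which rose over ethanol, lay below untreated cells in mean CPM (52.7 against 53.8). Aen, which fell against ethanol, lay slightly above them (38.3 against 38.1). Neither was called against untreated cells. With ethanol and untreated libraries as 1 reference, Cdkn1a was 0.67 (adjusted p = 0.00297). With 1 library left out, calls were lost without library 7 for Perp (0.45), Eda2r (adjusted p = 0.161) and Trp53inp1 (0.16), without library 8 for Plk3 (0.20), Perp (0.45), Eda2r (adjusted p = 0.0979), Trp53inp1 (0.33), Xpc (-0.21) and Zmat3 (-0.28), without library 11 for Plk3 (0.26), Perp (0.36), Eda2r (adjusted p = 0.0775), Trp53inp1 (0.10), Xpc (-0.24) and Zmat3 (-0.34), and without library 12 for Eda2r (adjusted p = 0.0722) and Xpc (-0.21), and Trp53inp1 was 0.40 without library 12.

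Ethanol against untreated gave more calls in Cre-negative than in Cre-positive cells, both among the targets and among all tested genes. The labels give no time in culture for the untreated cells, so ethanol and culture time cannot be told apart. In Cre-negative cells 16 of 30 rose (12.5% of all genes rose) and 3 fell (12% of all genes fell). The median was 0.24, where that of all tested genes was 0.00. Of the death genes 7 rose and 1 fell, of the arrest genes 3 rose and 1 fell, of the repair genes 2 rose, of the stress genes 1 rose and 1 fell, and of the last group 3 rose. Cdkn1a was at 13.7 and 12.9 CPM with ethanol and 5.16 and 5.13 untreated, a 2.58-fold rise (log2 1.37, SE 0.119, adjusted p = 2.04e-08), and was at 13.3 and 11.6 with 4-OHT. Trp53inp1 was at 41.6 and 42.9 CPM against 17.01 and 15.1 (log2 1.40, SE 0.0827, adjusted p = 5.45e-11). Sesn2 was at 24.9 and 25.4 CPM against 11.6 and 14.4 (log2 0.94, SE 0.0878, adjusted p = 5.56e-08).

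Pmaip1 rose too, but from near the floor of detection in Cre-negative cells, at 0.659 and 0.615 CPM with ethanol against 0.176 and 0.179 untreated (log2 1.81, SE 0.428, adjusted p = 0.00330). Eda2r had 19 and 22 counts against 10 and 7, a ratio of 2.22 (95% counting interval 1.23 to 4.16; adjusted p = 0.0388). The other rises ran from 0.20 for Perp to 0.68 for Btg2, and included Gadd45a (0.55), Phlda3 (0.52), Ddb2 (0.46), Ccng1 (0.42), Ckap2 (0.39), Mdm2 (0.30), Xpc (0.27), Ei24 (0.24) and Aen (0.23). Plk2 (-0.34), Sesn1 (-0.38) and Tnfrsf10b (-0.29) fell. With 1 library left out, calls were lost without library 1 for Xpc (0.25) and Ddb2 (0.42), without library 2 for Perp (0.17), Eda2r (adjusted p = 0.340), Tnfrsf10b (-0.18) and Ddb2 (0.52), without library 9 for Eda2r (adjusted p = 0.114), Tnfrsf10b (-0.24), Xpc (0.25) and Ddb2 (0.47), and without library 10 for Perp (0.19), Eda2r (adjusted p = 0.146) and Ddb2 (0.47).

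**Figure D3:**
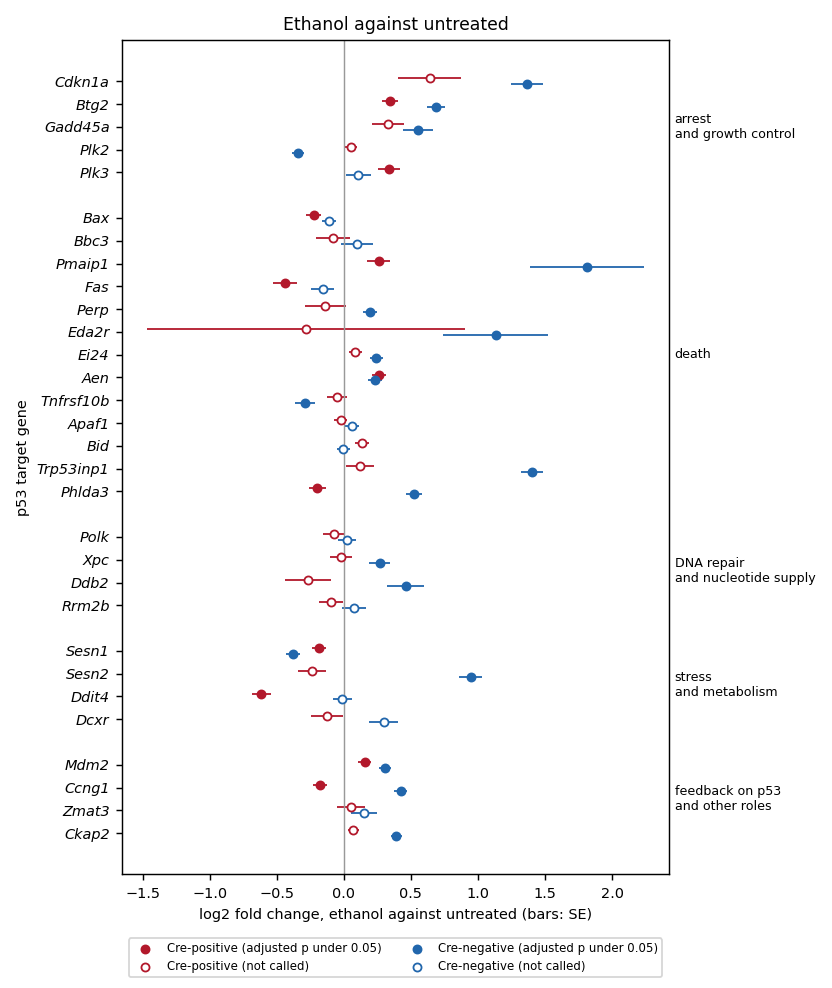
Change of each p53 target gene with ethanol against untreated cells, as log2 fold change with its standard error, by genotype and role (filled points passed at an adjusted p under 0.05). In Cre-negative cells 16 genes rose and 3 fell, and in Cre-positive cells 5 rose and 6 fell.

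In Cre-positive cells ethanol gave 5 rises (8.11% of all genes rose) and 6 falls (6.84% of all genes fell), with a median of -0.04 against -0.01. Btg2 (0.35), Plk3 (0.33), Pmaip1 (0.26), Aen (0.26) and Mdm2 (0.16) rose. Ddit4 (-0.61), Fas (-0.44), Bax (-0.23), Phlda3 (-0.20), Sesn1 (-0.19) and Ccng1 (-0.18) fell. Ddit4 was at 16.03 and 16.9 CPM with ethanol, 16.8 and 16.7 with 4-OHT and 24.98 and 25.6 untreated, so that both treated groups were low. Cdkn1a did not pass (0.64, adjusted p = 0.0705). The call was lost without library 3 for Phlda3 (-0.22), without library 4 for Plk3 (0.30), Bax (-0.16), Pmaip1 (0.21), Phlda3 (-0.17), Sesn1 (-0.15), Mdm2 (0.12) and Ccng1 (-0.13), without library 7 for Bax (-0.22), Pmaip1 (0.24), Phlda3 (-0.23), Sesn1 (-0.21), Mdm2 (0.17) and Ccng1 (-0.17), and without library 8 for Plk3 (0.27), Pmaip1 (0.28), Phlda3 (-0.16), Sesn1 (-0.16), Mdm2 (0.15) and Ccng1 (-0.18). The rises then numbered 2 without library 4 or 8, and the falls 2 without library 4 or 7 and 3 without library 8.

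The difference of the ethanol effects between genotypes, a comparison added after the values were seen, was above 0 for 1 member (8.32% of all genes), Plk2 (0.39), and below 0 for 9 (7.98% of all genes). The 9 were Trp53inp1 (-1.28, adjusted p = 1.47e-06), Sesn2 (-1.18, adjusted p = 5.36e-06), Pmaip1 (-1.55), Ddb2 (-0.73), Phlda3 (-0.72), Ccng1 (-0.60), Ddit4 (-0.60), Btg2 (-0.34) and Ckap2 (-0.32). Cdkn1a did not pass (-0.73, adjusted p = 0.0747). The median was -0.25, against -0.01 for all tested genes. With 1 library left out, calls were lost without library 1 for Pmaip1 (-1.55) and Ddb2 (-0.69), without library 2 for Pmaip1 (-1.57) and Ddb2 (-0.79), without library 3 for Ddb2 (-0.60), without library 8 for Btg2 (-0.30) and Ddb2 (-0.59), without library 9 for Btg2 (-0.28), Pmaip1 (-1.52) and Ddb2 (-0.74), and without library 10 for Pmaip1 (-1.61) and Ddb2 (-0.73).

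The genotypes themselves differed in many of the targets before any treatment. In untreated cells 5 members were higher in the Cre-positive genotype (24.4% of all genes were) and 14 lower (24.6% of all genes were), with a median of -0.19 against 0.01. Pmaip1 had the largest difference, at 17.2 and 17.6 CPM in Cre-positive and 0.176 and 0.179 in Cre-negative cells (log2 6.57, SE 0.200, adjusted p = 3.82e-17). Perp was opposite, at 3.15 and 3.15 CPM in Cre-positive and 89.97 and 85.9 in Cre-negative cells (log2 -4.80, SE 0.0854, adjusted p = 3.97e-21). Cdkn1a was at 1.06 and 1.33 against 5.16 and 5.13 CPM, 4.34-fold lower (log2 -2.12, SE 0.194, adjusted p = 6.16e-09). Eda2r had 1 count in each Cre-positive library and 10 and 7 in the Cre-negative ones, a ratio of 0.130 (95% counting interval 0.0146 to 0.548; adjusted p = 0.00369).

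Besides Pmaip1, the members higher in Cre-positive cells were Btg2 (0.80), Plk3 (0.55), Ckap2 (0.33) and Sesn1 (0.19). The other members lower there ran from -0.63 for Ccng1 to -0.20 for Bax and were spread over the roles: Plk2 among the arrest genes, Aen, Tnfrsf10b, Bid and Trp53inp1 among the death genes, Polk and Ddb2 among the repair genes, and Mdm2 and Zmat3 in the last group. In the ethanol libraries 4 members were higher (26.4% of all genes) and 19 lower (28.1% of all genes). In the 4-OHT libraries 6 were higher (30.5%) and 20 lower (30.2%). Of the 19 members called in untreated cells, Plk2 had the other sign in ethanol (0.04, adjusted p = 0.434) and Ckap2 in 4-OHT (-0.26, adjusted p = 5.04e-06). Ei24, not called in untreated cells, was lower in ethanol (-0.19, adjusted p = 0.00212) and higher in 4-OHT (0.20, adjusted p = 0.000898). Fas did not pass in ethanol (-0.21, adjusted p = 0.0540) and was higher in 4-OHT (0.86, adjusted p = 6.38e-09). With 1 library left out, calls were lost without library 2 for Bax (-0.16), Ddb2 (-0.49) and Zmat3 (-0.23), and without library 7 for Ddb2 (-0.39).

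**Figure D4:**
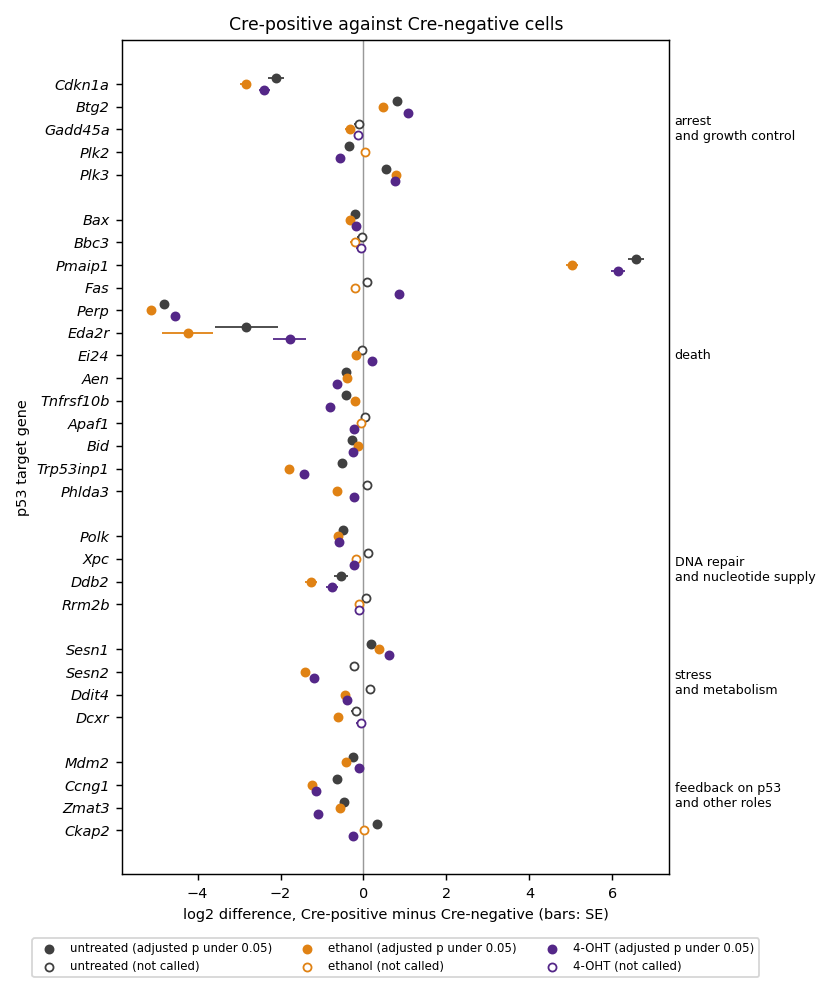
Difference of each p53 target gene between Cre-positive and Cre-negative cells, as log2 difference with its standard error, by role, in untreated, ethanol and 4-OHT libraries (filled points passed at an adjusted p under 0.05). In untreated cells Pmaip1 lies at 6.57 and Perp at -4.80, and both keep their side of 0 in all 3 treatments.

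Marker sums separated the genotypes as well. In untreated cells adipocyte markers summed to 4.82 to 5.27 CPM in Cre-positive and 48.4 to 48.7 in Cre-negative libraries, nearly all of it Fabp4. Epithelial markers summed to 1.43 to 1.77 against 4.80 to 5.77 CPM. Of these markers Krt19 was at 1.02 and 0.541 against 4.19 and 5.05 CPM, while the values of Cdh1 overlapped, at 0.472 and 0.639 against 0.397 and 0.645 CPM. Their part in the difference of Perp, a gene that epithelia express, and of the other members was not tested.

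Levels between genes were compared only per kilobase of exon. Plk2 ranked 1 of the 30 in every group, at 146 CPM per kilobase in untreated Cre-negative and 115 in untreated Cre-positive cells. Perp ranked 2 in untreated Cre-negative cells, at 45.0 CPM per kilobase, and 26 in untreated Cre-positive cells, at 1.61. Pmaip1 moved from rank 29, at 0.0651, to rank 14, at 6.36. Cdkn1a was low in both, at 1.45 and 0.336 CPM per kilobase, ranks 28 and 29, and Eda2r ranked 30 in both. Ranks that lie close together were not tested for a difference.

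Upstream of these genes, Trp53 RNA, which codes for p53 itself (chromosome 11, 69580359 to 69591873), was at 52.3 and 63.6 CPM with 4-OHT, 41.04 and 54.5 with ethanol and 42.2 and 40.6 without either in Cre-positive cells. The 4-OHT and ethanol values overlapped and the test was just missed (log2 0.27, SE 0.107, adjusted p = 0.0515), while against untreated cells Trp53 rose (log2 0.48, SE 0.112, adjusted p = 0.00169). The Cre-negative values were 77.98 and 60.4 CPM with 4-OHT and 52.4 and 52.9 with ethanol, and Trp53 rose there too (log2 0.38, SE 0.107, adjusted p = 0.0357), with no difference called between the genotypes (-0.11, adjusted p = 0.622). Mdm4, the partner of Mdm2 in restraining p53, was at 78.2 and 78.5 CPM with 4-OHT and 88.7 and 91.2 with ethanol in Cre-positive cells and fell (log2 -0.20, SE 0.0544, adjusted p = 0.00607). Cdkn2a, whose product p19Arf inhibits Mdm2, did not pass there (0.09, adjusted p = 0.130) and was lower in untreated Cre-positive than Cre-negative cells, at 87.6 and 85.6 against 140.2 and 141 CPM (log2 -0.70, SE 0.0440, adjusted p = 1.25e-11).

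Around the members, in 4-OHT against ethanol in Cre-positive cells, none of the 20 tested genes of p53 and its regulators rose and 9 fell (median -0.15). For this list and those that follow, the shares over all tested genes were 21.1% that rose and 17.2% that fell. The damage kinases led them: Prkdc (-0.70), Atm (-0.66) and Atr (-0.64), with the deubiquitinase Usp7 (-0.19). Of 30 tested further p53 targets 11 rose and 5 fell (median 0.08), among them Igfbp3 (0.93), which binds insulin-like growth factors, Rps27l (0.31), the matrix protein Thbs1 (0.24) and the receptor Epha2 (-0.40). Of 20 cell cycle genes listed as repressed by p21 through the DREAM complex, 3 rose and 12 fell (median -0.15). The mitotic genes Kif23 (-0.55), Ccnb2 (-0.51), Cdc20 (-0.38) and Top2a (-0.26) were among the falls. Whether p21 or DREAM acted on these genes in these large T antigen cells was not tested. Of 13 genes of the integrated stress response that are not members 7 rose and none fell (median 0.16; Atf3 0.70, Cebpb 0.67, Slc7a11 0.40, Asns 0.16). Of 12 interferon-stimulated genes 11 rose (median 1.13). With 4-OHT in Cre-negative cells 7 of these 12 rose, where 3.33% of all genes rose, and none fell (median 0.41). In the difference of the 4-OHT effects 5 of them were above 0, where 14.5% of all genes were, and none below (median 0.41).

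In ethanol against untreated Cre-negative cells, where 16 members rose, the same lists gave other counts. There 12.5% of all tested genes rose and 12% fell. Of the regulators 2 rose and 4 fell, of the further targets 7 rose and 3 fell (Psrc1 0.96, Gtse1 0.47, Ephx1 0.33), and of the DREAM genes 7 rose and none fell. The integrated stress genes gave 12 rises of 13 (median 0.41), with Trib3 (1.02), Vldlr (0.97), Ddit3 (0.95) and Atf5 (0.74) leading, and 11 of 12 interferon-stimulated genes rose (median 1.92). In Cre-positive cells ethanol gave 1 rise and 2 falls among the 13 stress genes and 8 rises of 12 interferon-stimulated genes (median 0.75). Over all tested genes 8.11% rose and 6.84% fell in that comparison. How far these lists account for the members' changes was not tested.

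All 30 symbols matched 1 gene each in GENCODE M21 (GRCm38), all protein-coding. Other genes overlapped 13 of them, 6 on the same strand and 9 on the opposite strand, and whether the counting used strand was not given in the sources used here. Transcript stretches of at least 90% identity to another gene covered 26.5% of Ddb2 (with Acp2), 26.0% of Bid (with Bcl2l13) and 23% of Rrm2b (with the pseudogene Gm8616). Values of these 3 genes are uncertain to that extent.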

How the data were processed

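The authors deposited expected counts as whole numbers, with 1 column per library and 1 row per gene symbol. Tools listed in the submitters' processing notes, with no role or order, are RSEM 1.2.30, STAR 2.5.2a, cutadapt 1.11 and edgeR, and the build is GRCm38. Which annotation, strand setting, rounding and filters were used is not stated in the sources used here. Tests used edgeR 4.0.16 in R 4.3.3 (filterByExpr, TMM scaling with factors 0.972 to 1.02, quasi-likelihood fit with 1 mean per group over all 12 libraries, 2-sided tests, Benjamini-Hochberg adjustment over 17609 genes, threshold 0.05). CPM are TMM-scaled. The common coefficient of variation was 3.44%. Libraries of a group differed by more than sampling noise (chi-square per degree of freedom 2.52 to 5.03). On simulated counts for 4-OHT against ethanol in Cre-positive cells (17113 genes), 92% of 100 genes changed 1.5-fold and 98% of 100 changed 2-fold were recovered, with 9 false calls. The changed genes were drawn from those above a floor of mean counts. Recovery of changes below 1.5-fold, or of genes with few counts, was not simulated. Members, roles and lists were chosen with earlier results of these data known. Values in every library are given for members called without overlap in 4-OHT against ethanol, called in the difference, or changed at least 2-fold, and of each other list at most 4 genes by smallest p. Alternatives were DESeq2 1.42.0 and its size factors, other count filters, fits on the compared groups, other control libraries and leaving out each library.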

Additional observations from a re-analysis of the deposited data

Results flagged for a closer look

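The effect of 4-OHT against ethanol differed between the genotypes for 16 members by the interaction term of edgeR's quasi-likelihood fit. The differences, Cre-positive minus Cre-negative on the log2 scale, were above 0 for Eda2r (2.46, a fitted value from few counts), Pmaip1 (1.115), Fas (1.07), Btg2 (0.62), Perp (0.58), Dcxr (0.55), Phlda3 (0.41), Ei24 (0.39), Trp53inp1 (0.36), Mdm2 (0.31) and Sesn1 (0.22). They were below 0 for Tnfrsf10b (-0.62), Plk2 (-0.62), Zmat3 (-0.53), Ckap2 (-0.27) and Aen (-0.26). With untreated in place of ethanol controls, 4 of the 11 above 0 (Btg2, Fas, Ei24 and Sesn1) kept a pass above 0.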

How the results depend on the processing

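Of 16 counts of members, 144 of 168 alternative values were within 1.5 times the value reported. For 4-OHT against ethanol in Cre-negative cells, the rises went from 2 to 1 with DESeq2's size factors or Wald test and were 1 to 1 without 1 library, and the falls went from 1 to 2 without a filter, to 3 with only the compared groups and 0 to 1 without 1 library. For the difference of the 4-OHT effects, the members above 0 went from 11 to 6 with DESeq2's Wald test, to 4 with untreated controls and 6 to 10 without 1 library, and those below 0 from 5 to 12 with untreated controls. For ethanol in Cre-positive cells, the rises went from 5 to 3 with DESeq2's Wald test or only the compared groups and 2 to 5 without 1 library, and the falls from 6 to 4 with DESeq2 or no filter and 2 to 5 without 1 library. Of the single-gene values, 1049 kept direction and call, 168 lost the call and 5 turned: Pmaip1 (-0.44), Trp53inp1 (-0.92) and Phlda3 (-0.32) in the difference with untreated controls, Plk2 (0.0433) in the genotype difference with ethanol libraries and Ckap2 (-0.26) with 4-OHT libraries. The cause was not tested. No paired analysis was possible because library numbers are unique and shared by no groups. With 2 libraries a group, a fit without 1 library assumes that the lone one varies like the other groups. Depth limits Eda2r, and Pmaip1 in Cre-negative cells.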
